A study of Mus musculus with 18 samples.

Results

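The apelin receptor gene Aplnr and the serine protease inhibitor gene Serpinb1b are 2 of 12393 mouse genes with a symbol on the array, and were described over 17 arrays of 2 motor regions. Their 3 probe sets, of 22626, were taken as those whose only gene symbol in the array's annotation is Aplnr (1438651_a_at and 1423037_at) or Serpinb1b (1426318_at). Both genes were chosen by their regional difference, a signal far higher in spinal cord than in the oculomotor nucleus on these same arrays, so the regional values below are a description of what chose them and carry no test. The genotype and age comparisons were not used in that choice and were tested.

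Total RNA of each region was measured as biotin-labelled cRNA on Affymetrix 430A arrays. In these a probe set is a group of short probes, assigned to genes by the array's annotation, and its signal is a summary of their brightness. There were 18 arrays in 6 groups of 3. Mutants were sampled at 6 and 10 weeks of age and controls at 10 weeks, each for the oculomotor nucleus, a midbrain motor nucleus that moves the eyes and is largely spared in amyotrophic lateral sclerosis (ALS), and for the cervical spinal cord, which is affected. The labels mark every sample, controls included, as belonging to an ALS model, and give no mutation, strain, promoter, pooling of animals or control of 6 weeks. Control spinal cord replicate 1 was left out, which left 2 arrays in that group, because its correlation with the other arrays across probe sets lay between 0.0104 and 0.0143, against 0.957 to 0.985 among the other 17. Nothing in the labels ties an array to 1 animal, so a p-value here reflects the spread of these samples alone, which may be technical, and precision is limited by how few arrays there are.

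Median signals of the 17 arrays ran from 207.1 to 226. The 7 tested markers of spinal Hox identity were all higher in spinal cord (limma adjusted p under 0.05, mean of 3 conditions). Of all probe sets 17.7% were higher and 20% lower in that comparison. The signals of the 13 measured markers summed to 8286.1 to 9315.3 in spinal cord, against 701 to 1044.5 in the oculomotor nucleus. Phox2a, a transcription factor that oculomotor neurons need, never passed a signal of 100 in the oculomotor nucleus (33.4 to 69.7). The summed signal of 11 motor neuron markers was lower there (3973.8 to 5331.2) than in spinal cord (9930.4 to 11498.4). The summed signal of 10 markers of dopamine neurons, which lie near the oculomotor nucleus in the midbrain, was 9281.3 to 11851.7 there and 3813.3 to 4417.4 in spinal cord.

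Aplnr encodes a G protein-coupled receptor for the peptides apelin and Apela. It resembles the angiotensin II type 1 receptor but does not bind angiotensin II, and it signals through inhibitory G proteins and beta-arrestins. It is best known from blood vessel growth, heart function and fluid balance, and in nervous tissue from endothelial cells and some neurons. Serpinb1b belongs to the clade B serpins, inhibitors that work inside the cell. It is a close mouse paralog of Serpinb1a, the counterpart of human SERPINB1, which inactivates the neutrophil proteases elastase, cathepsin G and proteinase 3.

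A promoter sequence from RefSeq was available for 1 of the 2 genes, Serpinb1b. The 250 bases before its start, on the plus strand at chr13:33083853-33084102 of GRCm38.p6, are shown because this gene had one of the largest regional differences on the array, with Hox genes among the few others of that size. The capitals mark its only CCAAT box, which reads ATTGG on this strand.
Serpinb1b: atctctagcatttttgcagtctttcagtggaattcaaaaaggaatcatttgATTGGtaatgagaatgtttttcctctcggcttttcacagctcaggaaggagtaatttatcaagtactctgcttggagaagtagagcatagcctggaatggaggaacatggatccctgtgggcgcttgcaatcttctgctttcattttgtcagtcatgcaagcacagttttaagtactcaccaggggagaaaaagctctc
Motifs were searched on both strands. The CCAAT box occurred in 33.8% of 32851 promoter windows of the same length. The other letters searched did not occur in the Serpinb1b window: TATAAA (the TATA box, in 12.4% of promoters), TAATTA (a homeodomain core, 4.84%), TGATTNAT (a composite of Hox and Pbx sites, 2.82%) and ATTTGCAT (the octamer, 1.6%).

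Aplnr was dim in every oculomotor group and bright in every spinal cord group. On 1438651_a_at the oculomotor signals were 142.4, 111.7 and 62.0 in mutants of 6 weeks, 54.0, 69.3 and 84.1 in controls of 10 weeks, and 94.6, 88.5 and 94.1 in mutants of 10 weeks. In spinal cord they were 1756.2, 1506.7 and 1483.8 in mutants of 6 weeks, 1518.5 and 1551.8 in controls of 10 weeks, and 1608.4, 1150.2 and 1353.2 in mutants of 10 weeks. The lowest spinal cord array thus lay above the highest oculomotor array, as in 4.88% of the 13575 probe sets tested. Over the 3 conditions the arrays ran from 54.0 to 142.4 in the oculomotor nucleus and from 1150.2 to 1756.2 in spinal cord. The signal stood between the 21.8 and 38.8 percentile of an array's probe sets in the oculomotor nucleus and between 86.8 and 91.6 in spinal cord.

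The second Aplnr probe set, 1423037_at, gave the same order of regions at a smaller distance. Its oculomotor signals were 81.9, 83.2 and 82.2 in mutants of 6 weeks, 56.9, 69.6 and 54.5 in controls of 10 weeks, and 57.5, 102.9 and 82.2 in mutants of 10 weeks. In spinal cord they were 388.6, 529.9 and 294.7, then 362.4 and 418.5, then 321.9, 496.6 and 384.3 in the same order of groups. The spinal cord arrays again lay above all oculomotor arrays, and they ran from the 57.7 to the 71.9 percentile of their array, against 22 to 33.3 in the oculomotor nucleus. The 2 probe sets consist of different probes, so their signal levels were not set against each other, but the regional difference of the same gene was smaller on this one.

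Serpinb1b, on 1426318_at, showed oculomotor signals of 61, 103.3 and 51.6 in mutants of 6 weeks, 98.6, 91.3 and 51 in controls of 10 weeks, and 111.5, 48.9 and 85.7 in mutants of 10 weeks. Its spinal cord signals were 1191.6, 1345.3 and 979.8 in mutants of 6 weeks, 1400.9 and 1286.6 in controls of 10 weeks, and 1054.8, 1209 and 1051.2 in mutants of 10 weeks. Each oculomotor group held arrays from both ends of that region's range, while no oculomotor array came near those of spinal cord. Within spinal cord both controls lay above all 3 mutants of 10 weeks, and 1 of them lay among the mutants of 6 weeks. Between those controls and mutants of 10 weeks 27.5% of all probe sets did not overlap, in either direction. The percentile on the array was 20.5 to 34.5 in the oculomotor nucleus and 84 to 89.1 in spinal cord.

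**Figure D1:**
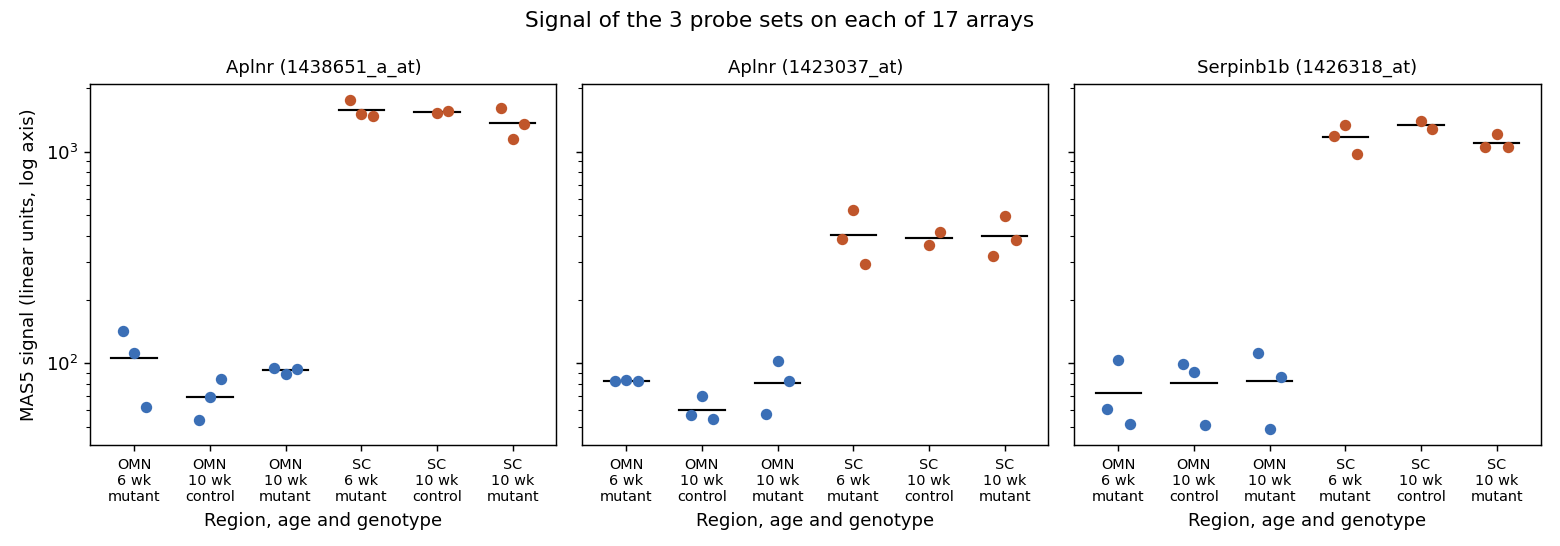
Signal of the 3 probe sets (linear units on a log axis) on each of 17 arrays, by region, age and genotype, with 1 point per array and a bar at each group's mean. Every spinal cord point lies above every oculomotor point: for Aplnr 1438651_a_at 1150.2 to 1756.2 against 54.0 to 142.4, for Aplnr 1423037_at 294.7 to 529.9 against 54.5 to 102.9, and for Serpinb1b 979.8 to 1400.9 against 48.9 to 111.5.

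In order of group means, Aplnr 1438651_a_at was highest in spinal cord of mutants of 6 weeks (1582 ± 151, SD, n = 3), then of controls (1535 ± 23.5, n = 2) and of mutants of 10 weeks (1371 ± 230, n = 3). In the oculomotor nucleus it followed at 105 ± 40.6 in mutants of 6 weeks, 92.4 ± 3.39 in mutants of 10 weeks and 69.1 ± 15 in controls (n = 3 each). Aplnr 1423037_at had the same top group (404 ± 118), then mutants of 10 weeks (401 ± 88.5) and controls (390 ± 39.7), and in the oculomotor nucleus the order of the first probe set, with 82.4 ± 0.681, 80.9 ± 22.7 and 60.3 ± 8.11. Neighbours in these orders overlapped within spinal cord. Among oculomotor groups the mutants of 10 weeks lay above the controls on 1438651_a_at, a comparison in which 24% of all probe sets did not overlap, in either direction. On 1423037_at the mutants of 6 weeks lay above the controls (81.9 to 83.2 against 54.5 to 69.6). That pair differs in both age and genotype and was not tested, and the share of all probe sets without overlap was not computed for it.

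Serpinb1b was highest in spinal cord of controls (1344 ± 80.8, SD, n = 2), then of mutants of 6 weeks (1172 ± 184) and of 10 weeks (1105 ± 90.1). In the oculomotor nucleus it was 82.0 ± 31.5 in mutants of 10 weeks, 80.3 ± 25.6 in controls and 72.0 ± 27.5 in mutants of 6 weeks, which overlapped throughout. Neighbours in this order overlapped except across the step between the regions.

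All 3 probe sets entered the test through their level in spinal cord, since the dimmest 40% by mean log2 signal were removed, and 3 of 3 passed. Since the tissues are mixtures of cells, fewer cells of a type and less RNA per cell cannot be told apart.

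The regional difference of Aplnr 1438651_a_at, spinal cord minus oculomotor nucleus on the log2(signal + 25) scale, was 3.67 ± 0.19 (SE) in mutants of 6 weeks, 4.06 ± 0.21 in controls of 10 weeks and 3.56 ± 0.19 in mutants of 10 weeks (n = 3 arrays per group, 2 for control spinal cord). The mean signal was 15-fold, 22.2-fold and 14.8-fold that of the oculomotor nucleus in those conditions. For Aplnr 1423037_at the difference was 1.96 ± 0.20, 2.28 ± 0.22 and 2.01 ± 0.20, and the mean signals differed 4.91-fold, 6.47-fold and 4.96-fold. The added 25 pulls log2 differences of low signals towards 0, and the oculomotor signals here are low. The sizes of these differences therefore depend on it.

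Serpinb1b differed by 3.65 ± 0.22 in mutants of 6 weeks, 3.73 ± 0.25 in controls and 3.44 ± 0.22 in mutants of 10 weeks, with mean signals 16.3-fold, 16.7-fold and 13.5-fold higher in spinal cord. Counted from the largest difference in favour of spinal cord among 13575 probe sets, Aplnr 1438651_a_at held places 7, 5 and 8 in the 3 conditions, and Serpinb1b 8, 6 and 10. Aplnr 1423037_at held places 43, 17 and 21. In 10 probe sets (0.0737% of those tested) the log2 difference was 3 or more in all 3 conditions. Besides Aplnr and Serpinb1b these were Hoxa5, Hoxb5, Hoxb6, Hoxc8 and Hoxd8, transcription factors that set position along the body axis, and 3 probe sets without a name here.

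The genotype comparison at 10 weeks asked whether mutant and control mice differ within a region. No member was called with genotype in either region, where called means a limma adjusted p under 0.05. In the oculomotor nucleus 1.47% of all probe sets were called. In the oculomotor nucleus the 3 mutant signals of Aplnr 1438651_a_at (88.5 to 94.6) all lay above the 3 control signals (54.0 to 84.1), and in this comparison 24% of all probe sets had groups that did not overlap, in either direction. The mutant minus control difference was 0.33 ± 0.19 on the log2 scale (95% interval -0.059 to 0.72, limma adjusted p = 0.429). On 1423037_at the groups overlapped and the difference was 0.29 ± 0.20 (-0.13 to 0.71, adjusted p = 0.538). For Serpinb1b it was 0.011 ± 0.22 (-0.46 to 0.48, adjusted p = 0.993).

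In spinal cord the 3 mutant signals of Serpinb1b (1051.2 to 1209) lay below both control signals (1286.6 and 1400.9). With 2 control arrays, groups that did not overlap, in either direction, were seen in 27.5% of all probe sets. The difference was -0.28 ± 0.25 (95% interval -0.80 to 0.25, limma adjusted p = 0.709). Aplnr differed by -0.17 ± 0.21 on 1438651_a_at (-0.61 to 0.26, adjusted p = 0.805) and by 0.019 ± 0.22 on 1423037_at (-0.45 to 0.49, adjusted p = 0.982), with overlapping arrays in both. In this comparison 0.0221% of probe sets were called.

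Whether the genotype difference was itself unequal between the regions was tested as an interaction, spinal cord minus oculomotor nucleus. The value for Aplnr 1438651_a_at was -0.50 ± 0.28 (95% interval -1.09 to 0.080, limma adjusted p = 0.822). The values were -0.27 ± 0.30 for 1423037_at (adjusted p = 0.897) and -0.29 ± 0.34 for Serpinb1b (adjusted p = 0.899). In this comparison limma called 0 of 13575 probe sets (0%), with 835 at an unadjusted p under 0.05, and 0 also without the trend on signal.

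The comparison of 10 with 6 weeks was possible in mutants alone, so that age and course of disease cannot be told apart. In spinal cord the signals of Aplnr 1438651_a_at overlapped between the ages, where 23.6% of all probe sets did not, with a difference of -0.21 ± 0.19 (95% interval -0.60 to 0.18, limma adjusted p = 0.551). Aplnr 1423037_at differed by 0.0045 ± 0.20 (-0.42 to 0.42, adjusted p = 0.993) and Serpinb1b by -0.075 ± 0.22 (-0.54 to 0.39, adjusted p = 0.886). Of all probe sets 2.76% were called in spinal cord with age, and none of these 3.

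In the oculomotor nucleus the age difference was -0.10 ± 0.19 for Aplnr 1438651_a_at (limma adjusted p = 0.907), -0.044 ± 0.20 for 1423037_at (adjusted p = 0.968) and 0.13 ± 0.22 for Serpinb1b (adjusted p = 0.894), with overlapping arrays in all 3 (14.2% of all probe sets did not overlap). In this comparison 0.0221% of probe sets were called. The age by region difference was -0.11 ± 0.26 (adjusted p = 0.874), 0.049 ± 0.28 (adjusted p = 0.955) and -0.21 ± 0.32 (adjusted p = 0.785) in the same order, and 0.368% were called. The 95% intervals of the genotype and age differences within a region reached from -0.80 to 0.72 at their widest. A missed threshold does not show that the groups were alike.

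**Figure D2:**
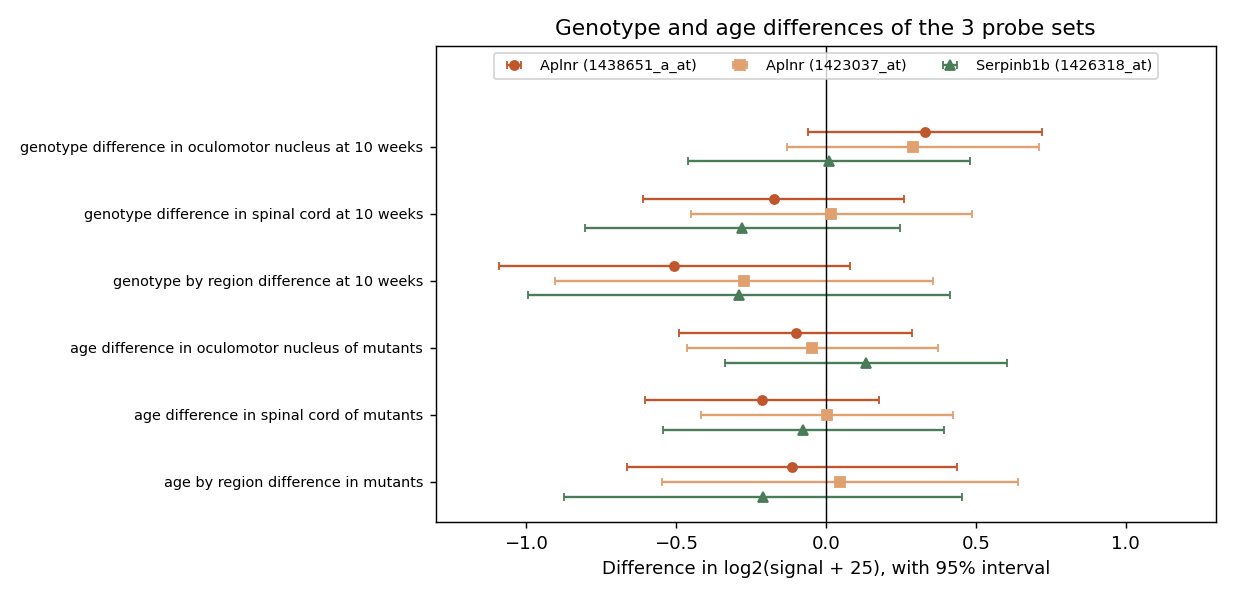
Genotype differences (mutant minus control at 10 weeks), age differences (10 minus 6 weeks in mutants) and both interactions with region for the 3 probe sets, as differences in log2(signal + 25) with 95% intervals. All 18 intervals include 0, and the point farthest from it is the genotype by region difference of Aplnr 1438651_a_at, -0.50.

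The genes whose pattern over the 17 arrays was nearest to each member were found by the root mean square (RMS) difference of log2 signals, each centred on its own mean. Nearest to Aplnr 1438651_a_at were Hoxb6 (RMS 0.36), Serpinb1b (0.39), Hoxd8 (0.43), Gfap (0.59), Hoxb5 (0.59), Hoxa5 (0.61), Lamp5 (0.64) and Prph (0.65). Gfap is the intermediate filament of astrocytes, Prph an intermediate filament of neurons with peripheral axons, and Lamp5 a membrane protein of some neurons. Nearest to Serpinb1b were Aplnr (0.39), Hoxb6 (0.41), Hoxd8 (0.49), Gfap (0.51), Hoxa5 (0.58), Prph (0.61), Hoxb5 (0.62) and Lamp5 (0.62). The arrays come from 2 regions, so this likeness is mostly that of the regional step, which chose both genes.

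Aplnr 1423037_at, with its smaller step, was nearest to other genes: Hoxc6 (RMS 0.23), A2m (0.27), Klk6 (0.28), Slc18a3 (0.31), Lgals1 (0.31), Lbx1 (0.32), Islr (0.33) and Prg4 (0.34). Slc18a3 loads acetylcholine into vesicles, and Lbx1 is a transcription factor of dorsal spinal interneurons. The RMS difference between both probe sets of Aplnr was 0.90, larger than that between 1438651_a_at and Serpinb1b.

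**Figure D3:**
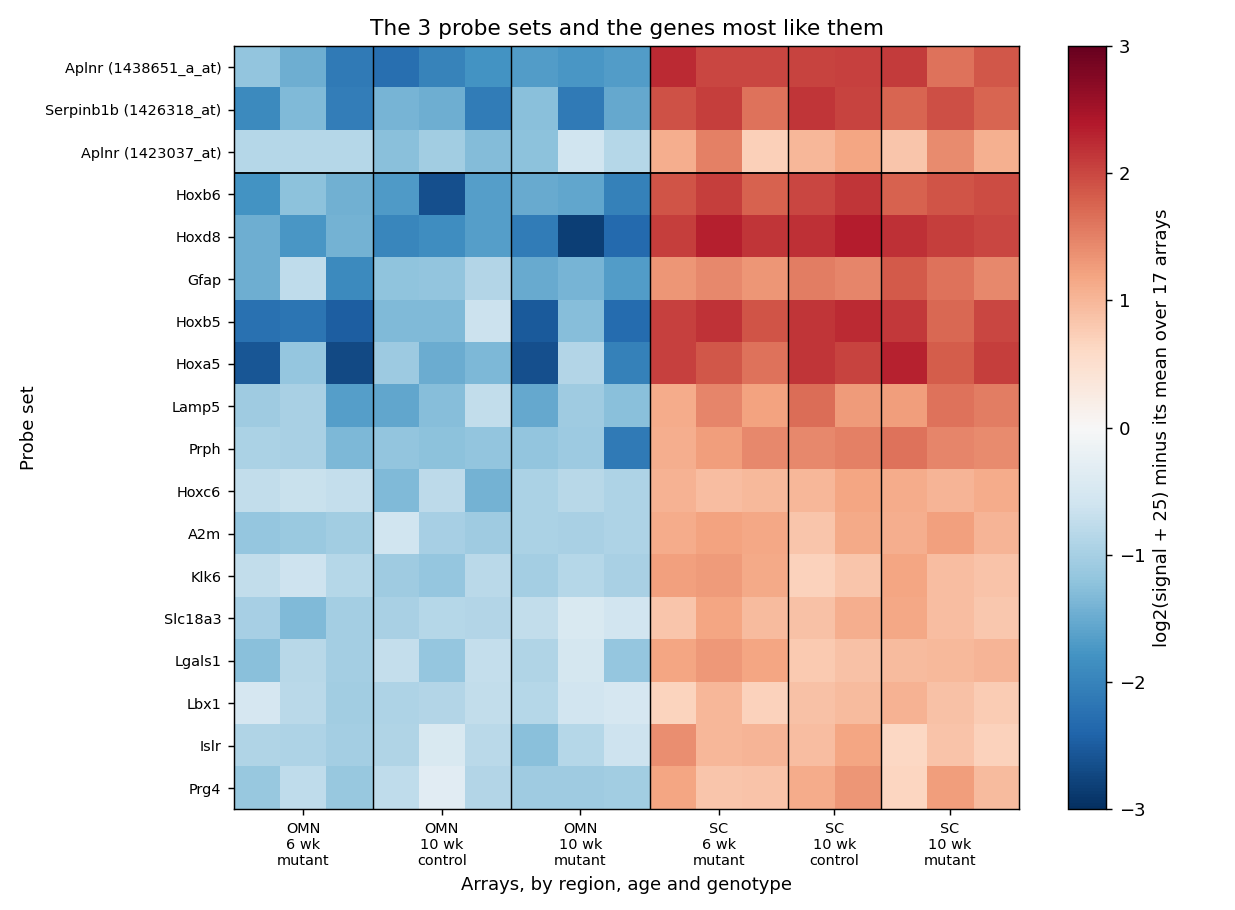
Centred log2(signal + 25) of the 3 probe sets and the genes nearest to them, with arrays in columns by region, age and genotype and probe sets in rows; the colour gives the value minus its mean over 17 arrays. Each row steps up from the oculomotor to the spinal cord arrays, by 3.76 on average for Aplnr 1438651_a_at, 3.61 for Serpinb1b and 2.09 for Aplnr 1423037_at.

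Within a region none of the 6 relations between members passed the test. In spinal cord (n = 8 arrays) Aplnr 1423037_at and Serpinb1b had Pearson's r = 0.64 (exact two-sided permutation p = 0.0910, 0.542 when adjusted over the 6) and Spearman's rho = 0.57 (exact p = 0.151, adjusted 0.703). The value fell to r = 0.27 without the 2 arrays farthest from the median of Aplnr. Both probe sets of Aplnr had r = -0.40 there (exact p = 0.327, adjusted 0.542; rho = -0.17, exact p = 0.703, adjusted 0.703), and r = -0.69 without the 2 farthest. Aplnr 1438651_a_at and Serpinb1b, so near each other over all arrays, had r = 0.062 in spinal cord (exact p = 0.881, adjusted 0.935; rho = 0.17, exact p = 0.703, adjusted 0.703). Without the 2 arrays farthest from the median of Serpinb1b it was r = 0.041.

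In the oculomotor nucleus (n = 9) that last pair had r = -0.029 (exact p = 0.935, adjusted 0.935; rho = 0.20, exact p = 0.613, adjusted 0.703), and r = -0.038 without the 2 farthest arrays. Both probe sets of Aplnr had r = 0.35 (exact p = 0.361, adjusted 0.542; rho = 0.33, exact p = 0.375, adjusted 0.703), and r = 0.093 without the 2 farthest. Aplnr 1423037_at and Serpinb1b had r = -0.38 (exact p = 0.293, adjusted 0.542; rho = -0.22, exact p = 0.572, adjusted 0.703), and r = -0.73 without the 2 farthest. The 2 farthest arrays were counted from the median of Serpinb1b in the first pair of this region, and from that of Aplnr 1423037_at in the others. Most of the signals were low, and arrays of different age and genotype were pooled.

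Regional differences of the ligand and the other tested genes of the apelin and angiotensin system were smaller than that of the receptor. The receptor was chosen for its large difference, so this order was largely fixed by the choice. Of 18 genes besides Aplnr 13 were measured and 6 tested. With the mean of the 3 conditions, in which limma called 37.7% of all probe sets (17.7% higher and 20% lower), 2 were higher in spinal cord, 1 was lower and 3 were not called. Apln, which encodes apelin, was higher by 0.41 ± 0.081 (adjusted p = 0.000547), with signals of 769.4 to 1170.5 in the oculomotor nucleus and 977.7 to 1559 in spinal cord that overlapped. Mme, the peptidase neprilysin, was higher by 0.26 ± 0.087 (adjusted p = 0.0252). Atp6ap2, the prorenin receptor, was lower (-0.14 ± 0.051, adjusted p = 0.0334).

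Agt, the precursor of angiotensin, differed by 0.056 ± 0.074 (limma adjusted p = 0.590). Ace differed by 0.19 ± 0.19 (adjusted p = 0.467), and Furin, a protease that cleaves proproteins, by -0.043 ± 0.083 (adjusted p = 0.723). The median difference of the 6 was 0.12, against -0.022 over all probe sets. The number called fell from 3 to 2 with quantile normalization, median centring, no filter, a filter of 60% or no trend on signal. It also fell to 2 without the 2 oculomotor arrays highest in pituitary hormone signals, and to 1 with all 18 arrays. Agtr2, an angiotensin receptor, lay below the filter (20.9 to 67.6 in the oculomotor nucleus, 36.6 to 105.3 in spinal cord). The second ligand Apela and the receptors Agtr1a and Agtr1b had no probe set with their symbol alone and were not analysed here. No gene of the system was called with genotype or age. Apln differed by -0.30 ± 0.14 with genotype in the oculomotor nucleus (adjusted p = 0.303) and by -0.19 ± 0.15 in spinal cord (adjusted p = 0.660).

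Of 24 genes that carry the receptor's signal 17 were measured and 16 tested. In the mean regional comparison 2 were higher in spinal cord, 2 lower and 12 not called, with a median of 0.015. Of all probe sets 17.7% were called higher and 20% lower there. The inhibitory G protein subunits Gnai3 (0.31 ± 0.054, limma adjusted p = 0.000127) and Gnai1 (0.22 ± 0.057, adjusted p = 0.00510) were higher. Arrb1, a beta-arrestin that ends G protein signalling and brings receptors into the cell, was lower (-0.36 ± 0.057, adjusted p = 6.448e-05), as was the histone deacetylase Hdac5 (-0.29 ± 0.098, adjusted p = 0.0251). None of the 16 was called with genotype or age. Each gene stands here by its brightest probe set, and others of Gnai2 (0.28, adjusted p = 0.0125) and Plcb1 (-0.31, adjusted p = 0.0277) were called between the regions where the brightest was not.

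Among the clade B serpins other than Serpinb1b, 13 of 26 were measured and 4 tested. In the mean regional comparison 2 were higher in spinal cord and 2 not called, with a median of 0.50. Of all probe sets 17.7% were called higher and 20% lower there. Serpinb1a, the closest relative, was higher by 1.70 ± 0.12 (limma adjusted p = 2.666e-09). Its signals were 115.3 to 225.3 in the oculomotor nucleus and 492.2 to 917.2 in spinal cord and did not overlap. The difference was 1.77 in mutants of 6 weeks (adjusted p = 4.73e-06), 1.87 in controls (adjusted p = 1.368e-05) and 1.47 in mutants of 10 weeks (adjusted p = 4.412e-05), comparisons in which 23.9%, 13.6% and 19.3% of all probe sets were called.

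Serpinb1a and Serpinb1b are close paralogs, so their signals are uncertain as to which gene they measure. The probes' sequences were not used here, and how much of either signal comes from the other gene was not tested. A second Serpinb1a probe set stayed at 15.9 to 48.6 in the oculomotor nucleus and 31.5 to 94.2 in spinal cord, below the filter. Serpinb1c, the third copy, had no probe set with its symbol alone. Serpinb6a, an inhibitor found in many tissues, was higher in spinal cord by 0.80 ± 0.077 (limma adjusted p = 1.437e-07), and Serpinb9, the inhibitor of granzyme B, differed by -0.039 ± 0.074 (adjusted p = 0.715). Serpinb9b was not called in the mean regional comparison (0.20 ± 0.10, adjusted p = 0.132), but it was higher in spinal cord in mutants of 10 weeks (0.58, adjusted p = 0.0244), where 3 of the 4 clade B genes were called. It rose in mutant spinal cord from 6 to 10 weeks by 0.72 (limma adjusted p = 0.0325), the single clade B gene called with age. In that comparison 2.76% of all probe sets were called. None of the 4 was called with genotype.

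Most serpins of other clades act outside the cell. Of 25, 15 were measured and 6 tested. In the mean regional comparison 5 were higher in spinal cord and 1 was lower (median 0.55), against 17.7% and 20% of all probe sets. The complement inhibitor Serping1 was higher by 1.24 ± 0.075 (limma adjusted p = 2.232e-10), Serpind1, or heparin cofactor II, by 0.88 ± 0.084 (adjusted p = 1.41e-07), and the acute-phase inhibitor Serpina3n by 0.73 ± 0.14 (adjusted p = 0.000290). Serpinf1 (0.36, with a second probe set at 0.11 not called, adjusted p = 0.595) and the collagen chaperone Serpinh1 (0.32) were higher too. Serpini1, or neuroserpin, which neurons release, was lower (-0.68 ± 0.066, adjusted p = 1.391e-07). Serpinh1 fell in mutant spinal cord from 6 to 10 weeks by 0.63 (limma adjusted p = 0.0248). In the same comparison 242 of 13575 probe sets were called higher and 132 lower, and with median centring 129 and 298. Of 16 tested markers of meningeal fibroblasts 5 fell and none rose (median -0.35, against 0.015 over all probe sets). Their sums over 18 genes were 16427 to 18766.7 at 6 weeks and 11206.2 to 14455.2 at 10 weeks. Of 8 tested mural cell markers 3 fell and none rose (median -0.41), with sums over 12 genes of 6883.7 to 7631.4 and 4488.2 to 5872.5, and Myh11 and Cnn1 never passed 100. The part of these cells in the fall of Serpinh1 was not tested.

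The proteases that such inhibitors can meet were described with 30 genes, of which 29 were measured and 12 tested. In the mean regional comparison 9 were higher in spinal cord, none was lower and 3 were not called (median 0.53). Of all probe sets 17.7% were called higher and 20% lower there. The oligodendrocyte protease Klk6 had the largest difference among them (1.89 ± 0.065, limma adjusted p = 8.082e-14), followed by Ctsc, which activates neutrophil proteases (0.91 ± 0.10, adjusted p = 8.219e-07), and by Plat, tissue plasminogen activator (0.77 ± 0.065, adjusted p = 2.511e-08). Ctsk (0.75), Ctsh (0.69), Ctsz (0.57), Prss12 (0.48), Ctss (0.40) and Ctsd (0.36) were the other 6. A dimmer probe set of the lysosomal protease Ctsb was higher in spinal cord (0.22, adjusted p = 0.0229), but its brightest was not called in the mean comparison (0.097, adjusted p = 0.0659), though it was in mutants of 10 weeks (0.28, adjusted p = 0.00638). Ctsb rose in mutant spinal cord with age by 0.32 (limma adjusted p = 0.0218), where 2.76% of all probe sets were called.

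The 3 neutrophil proteases that SERPINB1 is known to inactivate never passed a signal of 100 on any of the 17 arrays. Elane, neutrophil elastase, reached at most 38.3 in the oculomotor nucleus and 41.2 in spinal cord. Prtn3, proteinase 3, reached 61.2 and 52.8, and Ctsg, cathepsin G, 22 and 15.5. No difference of these genes between the regions was measured, since all 3 lay below the filter.

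**Figure D4:**
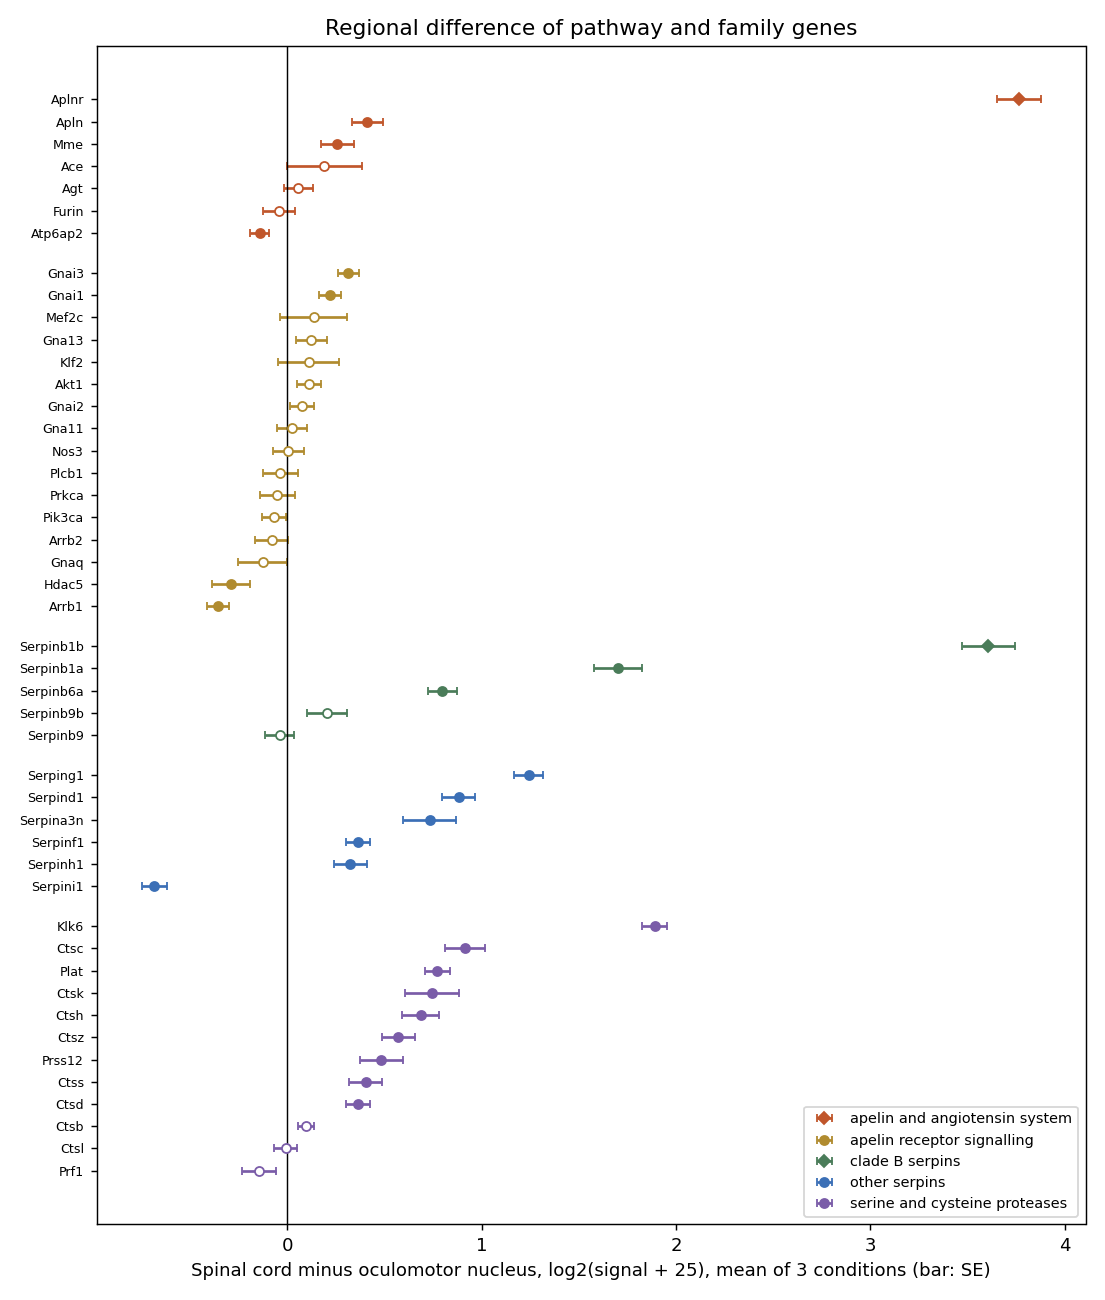
Regional difference, spinal cord minus oculomotor nucleus in log2(signal + 25), as the mean of 3 conditions with its SE, for the tested genes of the apelin and angiotensin system, receptor signalling, clade B serpins, other serpins and proteases. Filled points passed the test and open ones did not, and diamonds mark Aplnr (1438651_a_at) and Serpinb1b, which were chosen for this difference and not tested; Serpinb1a (1.70) and Klk6 (1.89) lie highest among the other genes, while Apln lies at 0.41.

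Markers of cell types were counted in the same mean regional comparison, in which 17.7% of all probe sets were called higher and 20% lower. Of 21 tested endothelial markers 5 were higher in spinal cord and 0 lower (median 0.15), and the 23 measured ones summed to 8918.6 to 9522.4 in the oculomotor nucleus and 9883.5 to 11477.2 in spinal cord. Vwf, a clotting factor of endothelial cells, was higher by 1.03 ± 0.16 (limma adjusted p = 4.638e-05). Of the 21 tested markers 16 were not called. Among these, the junction proteins Pecam1 (0.11 ± 0.086, limma adjusted p = 0.321) and Cdh5 (0.11 ± 0.11, adjusted p = 0.479) were named after their values were seen. Tie1 and Erg never passed 100.

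Of 5 tested genes of the neutrophil marker list 4 were higher in spinal cord and 0 lower, among them Mmp9 (0.86 ± 0.090, limma adjusted p = 4.676e-07) and Ngp (0.84 ± 0.11, adjusted p = 7.724e-06). The other 8 of the 13 measured lay below the filter, and whether the number of neutrophils differs was not tested. The 13 measured ones summed to 954.8 to 1483.4 in the oculomotor nucleus and 1863.9 to 2671.9 in spinal cord, while Camp, Cxcr2 and Itgb2l never passed 100. All 16 tested markers of meningeal fibroblasts were higher in spinal cord (median 1.14), with sums over 18 genes of 5604.6 to 6934.2 and 11206.2 to 18766.7, and Slc22a6 never passed 100. Of 8 tested mural cell markers 4 were higher and none was lower, with sums over 12 genes of 4930 to 5888.4 and 4488.2 to 7631.4. By condition, 6 of the 8 were called higher in mutants of 6 weeks (median 0.61), where 23.9% of all probe sets were called. In controls (median 0.042) and mutants of 10 weeks (median -0.023) 0 of the 8 were called, against 13.6% and 19.3% of all probe sets.

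Of 13 astrocyte markers 7 were higher in spinal cord and 1 lower, with sums of 28989.9 to 34122 and 43803.5 to 51839.5. Of 12 tested microglial markers 10 were higher and 0 lower, with sums over 16 genes of 6854.2 to 8063.3 and 9217.6 to 13826.3. All 11 oligodendrocyte markers were higher (sums 40387.4 to 68839 and 66094.3 to 84514.8), as were 6 of 7 tested motor neuron markers. The differences of Aplnr and Serpinb1b stood beside these shifts of markers, and the part of any cell type in them was not tested. Pituitary hormone signals summed to 603.9 to 23689.1 on the oculomotor arrays and 473.9 to 582.8 in spinal cord. Without the 2 oculomotor arrays highest in them, control replicate 3 and 10-week mutant replicate 2, the oculomotor genotype difference of Aplnr 1438651_a_at was 0.47 (limma adjusted p = 0.504), that of 1423037_at 0.095 (adjusted p = 0.936) and that of Serpinb1b 0.036 (adjusted p = 0.980).

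The genes next to Aplnr and Serpinb1b on their chromosomes had smaller regional differences where tested. Both members were chosen for large regional differences, so this order was largely fixed by the choice. Of the 12 nearest protein-coding genes of Aplnr on chromosome 2, in the order of GRCm38.p6, 5 had a probe set and 1 was tested, Tnks1bp1 (-0.16, limma adjusted p = 0.281). Of the 12 next to Serpinb1b on chromosome 13, 7 had a probe set and 4 were tested. Serpinb1a was higher in spinal cord, as given above, Wrnip1, a helicase-interacting protein, was lower (-0.37, adjusted p = 3.044e-05), and Serpinb9 and Serpinb9b were not called in the mean regional comparison, although Serpinb9b was in mutants of 10 weeks, as given above.

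On the left-out array labelled control spinal cord replicate 1, Aplnr 1438651_a_at read 89.8, Aplnr 1423037_at 226.2 and Serpinb1b 384. These were the 16.2, 36.4 and 49.2 percentile of that array. With this array in the fit, the regional difference in controls was 2.81 for Aplnr 1438651_a_at and 3.15 for Serpinb1b, in place of 4.06 and 3.73.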

How the data were processed

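Per the series' design text, cRNA was hybridised to Affymetrix 430A arrays and analysed with Microarray Suite 5.0, and the submitters' processing notes name MAS5. The deposited intensity signals are linear and were scaled by the authors to a 2% trimmed mean between 500.13 and 500.16 on the 17 arrays used. The table holds 22690 probe sets, 64 of them controls, which were removed. An offset of 25 (5% of the trimmed mean) was added before log2, and nothing else was normalized. Probe sets in the lowest 40% by mean (limit 7.38) were left out, and 13575 stayed. By the array's annotation 20380 probe sets had 1 symbol, 691 several and 1555 none. For 20351 of those with 1 symbol, the symbol was taken from RefSeq's table for GRCm38.p6 by gene identifier, whether or not it changed. Where a list gene had several probe sets, the one with the highest mean stands for it.

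Group means were modelled in R 4.3.3 using limma 3.58.1 (lmFit, contrasts.fit and eBayes with trend, 11 residual degrees of freedom). Benjamini-Hochberg adjustment ran over the 13575 probe sets in each of 10 contrasts. Relations within a region used exact permutation. The steps were tested on simulated data. The members and gene lists were chosen with earlier results of these data known. All member probe sets are named, with the 8 genes nearest each and any gene of the 5 pathway, serpin and protease lists called in a comparison described. Also named are Apln, Apela, Agtr1a, Agtr1b, Serpinb1a, Serpinb1c, Elane, Prtn3 and Ctsg, and up to 4 genes of each marker list with the smallest p or the lowest signals. Agtr2, Agt, Ace, Furin, Serpinb9, Pecam1, Cdh5 and the genes beside the members were named after their values were seen. The alternatives tried are given with their effects in the closing section.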

Additional observations from a re-analysis of the deposited data

How the results depend on the processing

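No genotype, age or interaction difference of the 3 probe sets was called under any alternative run (smallest limma adjusted p = 0.284, with all 18 arrays), and no regional difference changed sign. With a filter of 60% the probe sets 1423037_at and 1426318_at were not tested. Uncalled differences near 0 changed sign. With quantile normalization the genotype difference of Serpinb1b in the oculomotor nucleus was -0.021 and the age difference of Aplnr 1423037_at in spinal cord -0.017. With median centring Aplnr 1423037_at gave -0.032 for genotype in spinal cord, -0.075 for age in spinal cord and -0.041 for age by region. With an offset of 100, 4 times larger, the regional differences in mutants of 6 weeks, controls and mutants of 10 weeks were 1.44, 1.61 and 1.46 for Aplnr 1423037_at, 3.05, 3.28 and 2.92 for 1438651_a_at, and 2.89, 3.01 and 2.74 for Serpinb1b. With values floored at 25 they were 2.25, 2.70 and 2.33, then 3.99, 4.50 and 3.88, then 4.08, 4.12 and 3.83. With all 18 arrays genotype in spinal cord gave 1.08 for Aplnr 1438651_a_at and 0.30 for Serpinb1b, genotype by region 0.75 and 0.29, and the regional difference in controls 2.81 and 3.15.

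The numbers of all probe sets called moved more. As reported, genotype gave 200 in the oculomotor nucleus and 3 in spinal cord, age gave 3 and 374 in these regions, and age by region gave 50. In place of these, quantile normalization gave 14 for age in the oculomotor nucleus and 13 for age by region. Median centring gave 20 for age by region. The offset of 100 gave 11 and flooring 6 for age in the oculomotor nucleus. No filter gave 118 and 5 for genotype, 5 for age in the oculomotor nucleus and 0 for age by region. No trend gave 1 for genotype in spinal cord, 7 for age in the oculomotor nucleus and 29 for age by region. A fit of only the arrays compared gave 392 and 1 for genotype, 0 and 42 for age and 0 for age by region. With all 18 arrays 1 was called for genotype in the oculomotor nucleus and 0 in the other 4, and 326, 310, 203 and 1370 for the regional difference in mutants of 6 weeks, controls, mutants of 10 weeks and their mean, in place of 3239, 1841, 2619 and 5121. Without both oculomotor arrays with high pituitary hormone signals, an alternative added after the data were seen, 57 were called for genotype in the oculomotor nucleus, 0 for age there and 6 for age by region. Where no cause is evident from fewer samples or probe sets, the cause was not tested.

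The replicate numbers were not used as pairs in the main fit. Over 13 pairs of same-numbered arrays, the correlation of their deviations from group means ran from -0.0895 to 0.13. With 2 or 3 arrays per group, these values cannot decide whether same-numbered samples are paired. With the replicate block 8 probe sets were called for age in the oculomotor nucleus and 11 for age by region, and no call of a member or list count changed by more than 1.5 times.

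Leaving out 1 array at a time, the age difference in the oculomotor nucleus ran from -0.19 to 0.12 for Aplnr 1423037_at, from -0.37 to 0.11 for 1438651_a_at and from -0.064 to 0.38 for Serpinb1b (0 to 6 probe sets called). In spinal cord it ran from -0.19 to 0.21 for 1423037_at and from -0.20 to 0.028 for Serpinb1b (86 to 256 called). Age by region ran from -0.15 to 0.25 for 1423037_at and from -0.32 to 0.15 for 1438651_a_at (0 to 23 called). Genotype ran from -0.21 to 0.26 for Serpinb1b in the oculomotor nucleus (47 to 108 called) and from -0.14 to 0.16 for 1423037_at in spinal cord (0 to 51 called). The regional difference of 1438651_a_at in mutants of 6 weeks ran from 3.41 to 3.88, and 876 to 1665 probe sets were called in controls. Where a group was left with 1 array, that array is assumed to vary like the others. Called list genes fell from 2 to 1 (clade B serpins) and from 6 to 3 (other serpins) with a filter of 60%, which tested fewer genes, and from 3 to 1 (apelin and angiotensin), 4 to 0 (signalling) and 9 to 5 (proteases) with all 18 arrays. Calls of single list genes with age were not followed under the alternatives. None of the 6 relations within a region changed sign under the alternatives run for it. The members' oculomotor signals lie near the offset, which limits the size of their regional differences.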
